A study of Mus musculus with 13 samples.

Results

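The genes described here encode the collagens and 7 secreted matricellular proteins, the structural and signalling proteins of the extracellular matrix. They were taken from the ChIP-seq peak lists by symbol: every symbol that starts like a collagen chain (Col, a number, a, a number), with Postn, Fn1, Tnc, Thbs1, Thbs2, Sparc and Spp1. The rule found 45 genes among the 18562 that appear in any of the 6 lists, of which 38 came from the collagen pattern. One of these 38, Col4a3bp, encodes a ceramide transfer protein and is no collagen, which leaves 37 collagen genes. RefSeq lists 51 mouse genes whose symbols meet the rule, and 7 of them (Col2a1, Col6a1, Col8a2, Col9a2, Col11a2, Col15a1 and Col20a1) had no row in the lists used here.

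Collagen chains assemble as trimers. Fibrillar collagens give tissue its tensile strength, network collagens such as type IV form basement membranes, and fibril-associated, beaded filament and transmembrane collagens tie fibrils, cells and other matrix proteins together. Matricellular proteins such as periostin, tenascin C, the thrombospondins, SPARC and osteopontin bind this matrix and cell surface receptors, and with fibronectin they are known for their part in cell adhesion, migration and metastasis. Trimethylation of histone H3 at lysine 4 (H3K4me3) marks the starts of active or poised genes. Trimethylation at lysine 27 (H3K27me3), placed by the Polycomb repressive complexes, marks genes that are kept silent, often over long domains.

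The cells are 4T1, a line from a spontaneous mammary tumor of a BALB/cJ mouse. Both groups carried a lentiviral guide RNA and were exposed to Cas9: sg-Ctrl cells had a guide with no target in the genome, and Nup210 KO cells (KO-N13) had a guide to exon 5 of Nup210, which encodes a membrane protein of the nuclear pore, and are 1 clone grown from a single cell. H3K4me3 and H3K27me3 were profiled in both groups. In sg-Ctrl cells, libraries were also made for NUP210 and for a panel of nuclear pore proteins bound by the antibody mAb414 (NPC). The 6 conditions have 1 library each, so no test of KO against sg-Ctrl was possible and a clone's own features cannot be told apart from the loss of Nup210. Intervals are 95%. Those of reads and of a gene's ratio cover counting error only. Those of a median give the spread among genes, which are no replicates.

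The authors listed regions of enrichment over IgG (peaks) that met a gene, which is a window of 4 kb to each side of the transcription start for H3K4me3 and the whole gene body for the other targets. Reads were divided by the size of each library relative to IgG. Relative to sg-Ctrl, the depth of the KO library was 1.27 for H3K4me3 and 3.16 for H3K27me3. H3K4me3 levels are given as these scaled reads per kb of the peak at the start. H3K27me3 is given as the length of the gene body under peaks. Listed NUP210 and NPC peaks were weak, with median folds over IgG of 1.19 and 1.10, against 49.96 and 34.6 for H3K4me3 in sg-Ctrl and KO and 2.57 and 2.39 for H3K27me3. At the start of Nup210 itself the H3K4me3 peak held 885 reads (sg-Ctrl) and 913 (KO), which does not check the knockout because the guide cuts further into the gene. Of 8 epithelial marker genes 7 had an H3K4me3 peak in sg-Ctrl, against 1 of 8 fibroblast markers (Pdgfra), 0 of 5 endothelial markers and 1 of 6 immune markers (Cd68), and the same counts held in KO.

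In sg-Ctrl cells 16 of the 45 genes had an H3K4me3 peak at the start and no H3K27me3 peak, 21 had H3K27me3 alone, 5 had both and 3 had neither. In total 21 of 45 had H3K4me3, against 67.1% of all genes in the lists, and 26 had H3K27me3, against 26.8%. In KO cells 20 had H3K4me3 and 24 had H3K27me3, where 27.6% of all genes did. By protein family, of the 7 matricellular genes 6 had H3K4me3 in sg-Ctrl and 1 had H3K27me3, whereas of the 8 beaded filament and anchoring collagens 1 had H3K4me3 and 7 had H3K27me3. Both marks lay on Col4a5, Col4a6, Col12a1, Col14a1 and Col23a1 in sg-Ctrl and in KO, where 3.90% and 3.24% of all genes had both. The neither class in sg-Ctrl was Col5a3, Col10a1 and Col17a1. The class differed between sg-Ctrl and KO for 6 of the 45 genes, against 11.14% of all genes.

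**Figure D1:**
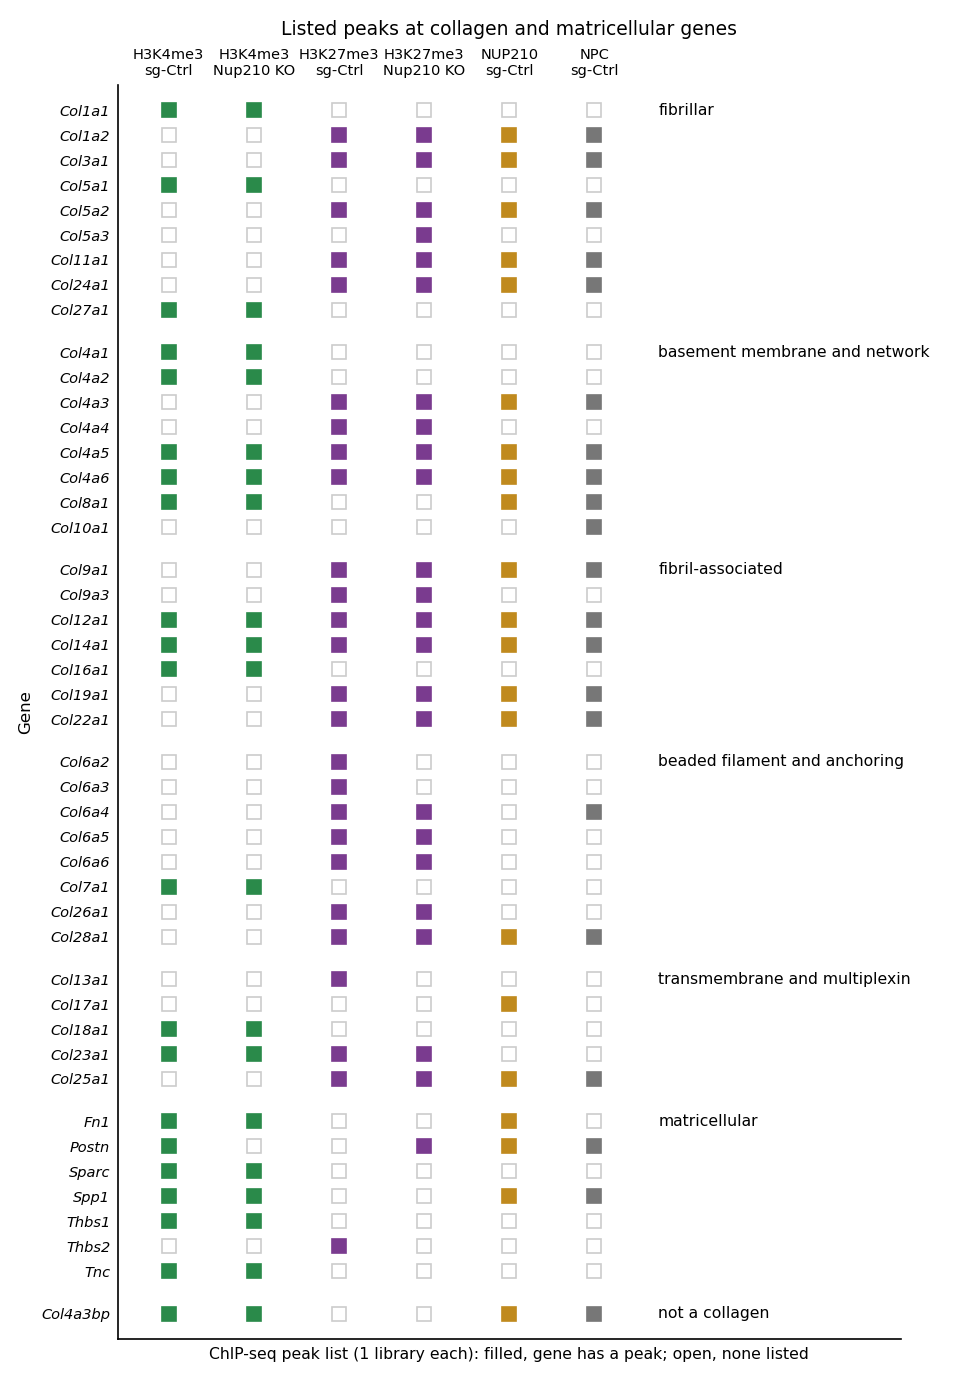
Peaks listed at each of the 45 genes (rows, by family) in each of the 6 ChIP-seq lists (columns, 1 library each). A filled square means at least 1 listed peak and an open square none. H3K4me3 and H3K27me3 are mostly on different genes, and Postn is the gene with H3K4me3 in sg-Ctrl alone.

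Among the matricellular genes, Postn, which encodes periostin, was the only member of the 45 with an H3K4me3 peak in a single list. Of all genes with such a peak in either list, 2.02% had it in sg-Ctrl alone and 1.89% in KO alone, and no member had it in KO alone. The sg-Ctrl peak held 77 reads (60.8 to 96.2) against 3 IgG reads, a fold over IgG of 24.2, and lay at chr3:54358201-54359200 (positions as in the lists, which match GRCm38). It ended 1907 bp before the listed start of the gene at position 54361107. It overlapped the 250 bases before a further RefSeq start at position 54359267, so it lies at the more upstream of the gene's 2 RefSeq promoters. With 72.6 scaled reads per kb it was the weakest of the 21 members' peaks, and 2.43% of all genes had a weaker one in sg-Ctrl.

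In KO cells Postn had no H3K4me3 peak and had 2 H3K27me3 peaks, where sg-Ctrl had none. One spanned chr3:54361001-54366000 with 399 reads and a fold of 4.14, and covered the listed start. The other spanned chr3:54377001-54397000 with 1693 reads and a fold of 1.38. The length under H3K27me3 went from 0 to 18.9 of 29.9 kb, and was 4.89 kb when only peaks with a fold of at least 2 were kept. Because the KO library was the deeper, each KO peak was set beside the sg-Ctrl peaks of its width. At 29.8 and 31.6 scaled reads per kb both lay above those peaks' 5th percentile (26.7 and 20.7). This compares read density alone and leaves out IgG. Whether either peak would be listed at the depth of sg-Ctrl was not tested. The 2 Postn promoters are shown because the H3K4me3 peak of sg-Ctrl lay at one and the H3K27me3 peak of KO began at the other. They are the 250 bases before each RefSeq start (GRCm38.p6, plus strand), 5′ to 3′, with CG dinucleotides, the sites of DNA methylation, in capitals.

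Postn upstream start, chr3:54359017-54359266: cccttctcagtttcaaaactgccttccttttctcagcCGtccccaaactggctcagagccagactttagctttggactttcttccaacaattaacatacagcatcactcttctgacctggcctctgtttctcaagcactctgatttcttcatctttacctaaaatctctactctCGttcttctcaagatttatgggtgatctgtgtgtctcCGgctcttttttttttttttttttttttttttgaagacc
Postn listed start, chr3:54360857-54361106: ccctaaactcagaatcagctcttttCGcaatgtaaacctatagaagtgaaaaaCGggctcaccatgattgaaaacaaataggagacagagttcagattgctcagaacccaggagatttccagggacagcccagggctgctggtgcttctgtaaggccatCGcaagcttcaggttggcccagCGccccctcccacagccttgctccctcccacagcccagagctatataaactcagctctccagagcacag

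Both Postn promoters were poor in CG, with 3 and 4 CG in 250 bases and 40.4% and 52.0% G and C. The listed one holds the letters TATAAA at position -26 from the start, and the upstream one holds none. TATAAA, searched on both strands, was found in the same window of 12.4% of 32851 RefSeq promoters.

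Sparc encodes osteonectin, a collagen-binding glycoprotein. Its H3K4me3 reads numbered 2862 (2758 to 2969) in sg-Ctrl and 1397 (1325 to 1472) in KO, or 793.5 and 323.9 scaled reads per kb, with almost the same width (3400 and 3200 bp). The log2 ratio of -1.29 (-1.39 to -1.20) was the lowest of the 20 members with a peak in both lists, and 2.44% of all genes had a lower one. Tnc, which encodes tenascin C, went from 335 to 156 reads with a ratio of -1.26 (-1.54 to -0.98). The levels of Tnc were low in both libraries, at 197.4 and 82.7 scaled reads per kb.

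The other matricellular genes had smaller differences per kb. Spp1, which encodes osteopontin, had 1006 reads over 6000 bp in sg-Ctrl and 223 reads over 1800 bp in KO. Its ratio per kb was -0.78 (-0.998 to -0.57), and its ratio of total reads was -2.52, lower than that of all but 36 of 12197 genes. The fold over IgG at Spp1 was low in both lists, 6.77 and 4.24. Thbs1, which encodes thrombospondin 1, held 3023 and 2409 reads over 7800 bp in each list, a ratio of -0.67 (-0.75 to -0.60). Fn1, which encodes fibronectin, held 3849 and 3067 reads, a ratio of -0.54 (-0.60 to -0.47). These ratios are read against a median of -0.50 over all 12197 genes with a peak in both lists. Relative to it, Sparc stood at -0.79, Tnc at -0.76, Spp1 at -0.28, Thbs1 at -0.17 and Fn1 at -0.04. The median differed by chromosome, and was -0.72 on both chromosome 4 (Tnc) and chromosome 5 (Spp1). Relative to the median of its own chromosome, Sparc stood at -0.81, Tnc at -0.54, Thbs1 at -0.25, Spp1 at -0.06 and Fn1 at -0.02. The part of chromosome-wide differences in these ratios was not tested. Thbs2, which encodes thrombospondin 2, had no H3K4me3 peak. A 7000 bp H3K27me3 peak with 199 reads and a fold of 4.61 lay over its end in sg-Ctrl and none was listed in KO, so 6.501 and 0 kb were covered.

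The Sparc peak was lower at nearly the same width, and that of Spp1 was narrower. Their promoters are shown for that contrast, in the same form (Sparc is on the minus strand, and the Spp1 start is the first of 2 in the lists).

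Sparc, chr11:55420081-55420330: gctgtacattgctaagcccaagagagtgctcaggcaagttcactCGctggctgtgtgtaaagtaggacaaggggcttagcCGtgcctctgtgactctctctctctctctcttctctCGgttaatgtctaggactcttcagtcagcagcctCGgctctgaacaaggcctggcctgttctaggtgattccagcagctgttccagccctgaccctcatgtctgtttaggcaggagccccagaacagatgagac
Spp1, chr5:104434861-104435110: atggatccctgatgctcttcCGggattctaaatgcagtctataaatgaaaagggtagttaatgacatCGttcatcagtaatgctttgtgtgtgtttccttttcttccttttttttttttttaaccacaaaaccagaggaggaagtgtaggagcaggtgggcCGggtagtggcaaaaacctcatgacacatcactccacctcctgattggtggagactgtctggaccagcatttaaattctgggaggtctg

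These too hold few CG, 4 and 3. The Spp1 window has TATAAA on either strand at position -211, and the Sparc window has none. Both Spp1 starts lay under the H3K4me3 peak in both lists.

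**Figure D2:**
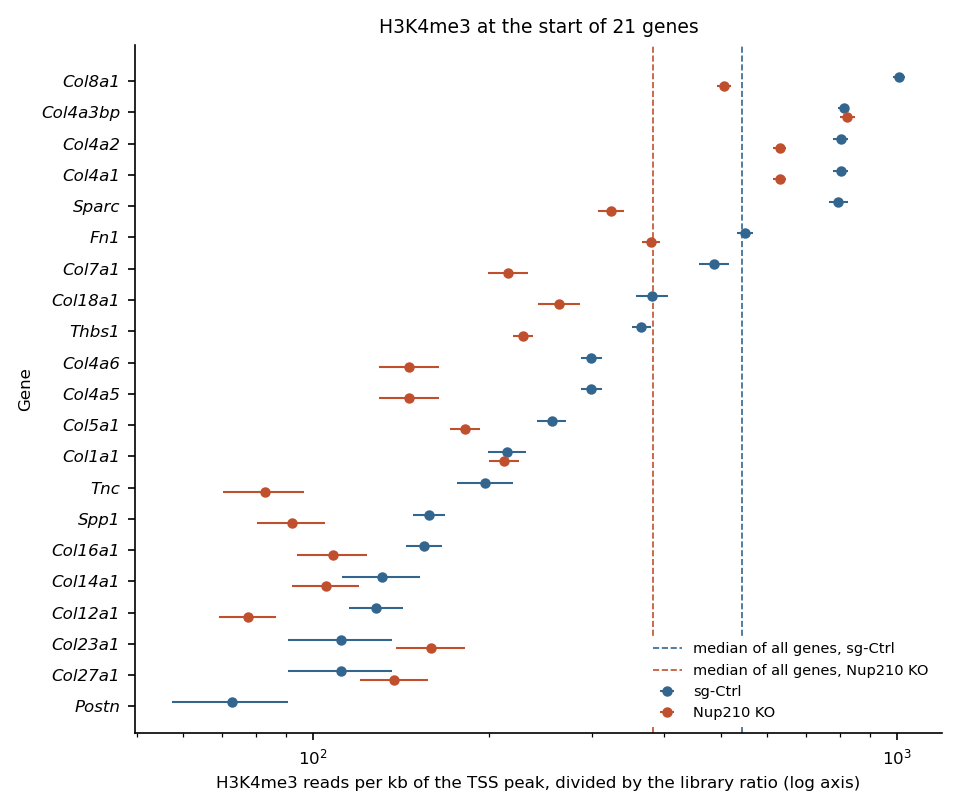
H3K4me3 reads per kb of the peak at the start (log axis, divided by the library ratio) for the 21 genes with a peak, in sg-Ctrl (blue) and Nup210 KO (orange), with 95% Poisson intervals. Dashed lines give the medians of all genes, 542.8 and 381.8. The KO point lies to the left for most genes, and Postn has no KO point.

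Of the basement membrane and network collagens, 5 of 8 had H3K4me3 in each list. Col4a5 and Col4a6, the X-linked chains of type IV collagen, start 1343 bp apart on opposite strands and share 1 H3K4me3 peak, so they are 2 genes and 1 measurement. In sg-Ctrl this peak spanned chrX:141471801-141478800, 7000 bp over both starts, with 2226 reads (2134 to 2320) and a fold over IgG of 19.98. In KO it spanned chrX:141475001-141476400, 1400 bp, with 276 reads (244.4 to 310.6) and a fold of 13.7. It still covered the Col4a5 start and ended 925 bp short of the Col4a6 start. The ratio per kb was -1.03 (-1.22 to -0.85). The ratio of total scaled reads was -3.36, and only 10 of 12197 genes had a lower one. The H3K4me3 peak in KO was narrower relative to sg-Ctrl than for all but 0.0410% of genes.

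H3K27me3 differed in the same stretch. In sg-Ctrl 40.0 of 308.7 kb of Col4a6 and 3 of 213.8 kb of Col4a5 were covered, in 4 peaks and 1 peak. In KO 173.1 and 103.2 kb were covered, in 9 and 6 peaks. These gains of 133.1 and 100.2 kb were the largest of the 28 members with H3K27me3, and 42 and 77 of 5853 genes gained more. One of the KO peaks, chrX:141464001-141475000, with 889 reads and a fold of 2.34, covered the Col4a6 start and ended at the base before the narrowed H3K4me3 peak. No sg-Ctrl peak lay over this start, and the nearest one was 166800 bp from the H3K4me3 peak. Of the 10 KO peaks on the 2 genes that met no sg-Ctrl peak, 9 were at or above the 5th percentile set by sg-Ctrl peaks of that width. Over all genes of chromosome X the covered length in KO was 1.26 times that in sg-Ctrl.

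The 2 promoters are shown because H3K4me3 covers both in sg-Ctrl and one in KO. They are again the 250 bases before each start, 5′ to 3′ on the gene's own strand (minus for Col4a6, plus for Col4a5), with CG in capitals.

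Col4a6, chrX:141474077-141474326: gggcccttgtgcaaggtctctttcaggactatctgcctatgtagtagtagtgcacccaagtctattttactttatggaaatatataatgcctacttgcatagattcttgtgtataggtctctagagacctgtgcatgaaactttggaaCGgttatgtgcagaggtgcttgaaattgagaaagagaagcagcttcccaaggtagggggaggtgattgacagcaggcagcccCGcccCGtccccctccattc
Col4a5, chrX:141475169-141475418: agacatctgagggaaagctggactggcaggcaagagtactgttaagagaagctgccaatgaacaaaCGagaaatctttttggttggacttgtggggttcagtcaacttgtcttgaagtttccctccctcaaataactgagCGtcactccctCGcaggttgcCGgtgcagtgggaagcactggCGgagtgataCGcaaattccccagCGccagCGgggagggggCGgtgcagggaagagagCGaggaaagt

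The Col4a5 window, under H3K4me3 in both lists, holds 10 CG, and the Col4a6 window, under H3K27me3 in KO, holds 3.

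**Figure D3:**
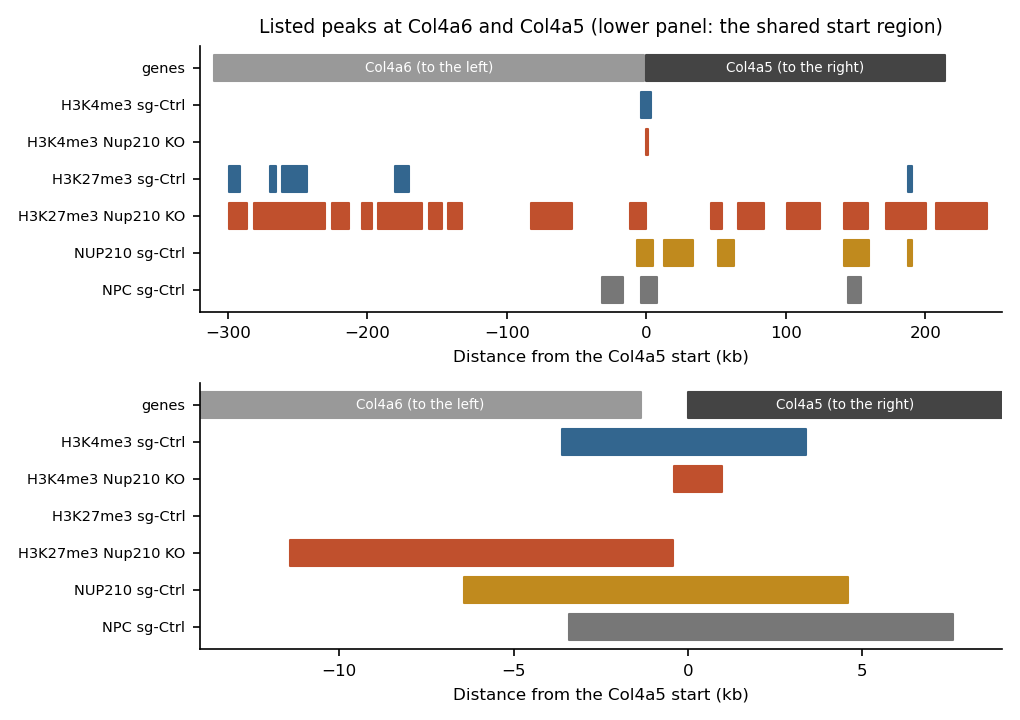
Listed peaks along Col4a6 (transcribed to the left) and Col4a5 (to the right), by distance in kb from the Col4a5 start, with the start region enlarged in the lower panel. Blue is sg-Ctrl and orange Nup210 KO for the histone marks, and NUP210 (yellow) and NPC (grey) are from sg-Ctrl. The H3K4me3 peak is 7000 bp wide in sg-Ctrl and 1400 bp in KO, beside a KO H3K27me3 peak that covers the Col4a6 start.

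Col4a1 and Col4a2, the chains of the common type IV trimer, start 3 bp apart and also share 1 H3K4me3 peak. Its reads numbered 4758 in sg-Ctrl and 5773 in KO, with a ratio per kb of -0.35 (-0.40 to -0.29), and the total scaled reads were nearly equal with a ratio of -0.07. Neither had H3K27me3 in any list. Col4a3 and Col4a4, the third such pair, start 72 bp apart, had no H3K4me3 and lay largely under H3K27me3: 129.1 and 135.1 of 135.1 kb for Col4a3 and 90.0 and 104.8 of 136.1 kb for Col4a4 in sg-Ctrl and KO. In KO 1 peak spanned both starts. The 3 pairs of type IV genes thus held 3 different patterns of marks. Col8a1, a short-chain network collagen, had the highest level of the members in sg-Ctrl, 7073 reads and 1010 scaled reads per kb, and 505.3 in KO. Its ratio of -0.9995 (-1.05 to -0.95) fell just short of 2-fold, at 0.5002 of the sg-Ctrl level. Col10a1, of growth plate cartilage, had neither mark.

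The fibrillar collagens were divided. Col1a1, Col5a1 and Col27a1 had H3K4me3 and no H3K27me3, while Col1a2, Col3a1, Col5a2, Col11a1 and Col24a1 had H3K27me3 and no H3K4me3. The chains of the type I trimer therefore fell into different classes: Col1a1 held 685 and 1089 H3K4me3 reads in sg-Ctrl and KO, 215.2 and 212.7 per kb, with a ratio of -0.02 (-0.16 to 0.12). Its peak began 131 bp after the start in both lists. Col1a2 had 12.5 and 33.5 of 35.8 kb under H3K27me3. In sg-Ctrl most of this was a peak of 11 kb with a fold of 1.33, beside the edge of a 58 kb peak mostly past the gene's end. In KO 1 peak of 90 kb ran through both stretches at a fold of 2.135. Reads per kb over whole peaks were 50.5 in sg-Ctrl and 35.3 in KO. The chains of type V differed in the same way, with a ratio of -0.49 (-0.61 to -0.37) at Col5a1 and 116.0 and 124.3 of 129.0 kb under H3K27me3 at Col5a2. Col5a3 had neither mark in sg-Ctrl and 1 H3K27me3 peak of 8000 bp in KO, with 532 reads and a fold of 3.75. Col27a1, with 95 and 223 reads, had a ratio of 0.30 (-0.05 to 0.66). Col24a1 had the largest loss of the members, from 174.0 to 94.0 of 259.5 kb, and 42 of 5853 genes lost more. Col3a1 lay beside Col5a2 and had 33.2 and 38.2 of 38.2 kb covered. When peaks with folds under 2 were left out the changes of Col3a1 and Col5a2 were -16.5 and -45 kb, so their direction turned with this limit. Col11a1 had 4 and 10 kb covered, at pooled folds over IgG of 0.734 and 0.904, and 1 of its 2 KO peaks had more reads than scaled IgG, with a fold of 1.38.

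Of the fibril-associated collagens, 6 of 7 had H3K27me3 in each list. Col12a1 and Col14a1, which coat type I fibrils, had both marks. Col12a1 held 354 and 313 H3K4me3 reads, a ratio of -0.73 (-0.95 to -0.51), and 16.0 and 87.0 of 119.7 kb under H3K27me3. In both lists the H3K27me3 stopped within 200 bp of the H3K4me3 peak. The gain of Col12a1 rests on weak peaks, since with folds of at least 2 it was 0.01 kb. Col14a1 had its H3K4me3 peak before the start, ending 550 bp short of it in sg-Ctrl and 350 bp in KO, at folds over IgG of 4.37 and 3.83, and under a broad H3K27me3 domain that covered 176.3 and 177.3 of 213.1 kb. It was the one member whose H3K4me3 peak overlapped an H3K27me3 peak, in both lists. Col22a1, a collagen of tissue junctions, had 29.0 and 127.5 of 235.8 kb covered. In KO most of it lay in 1 peak of 206.0 kb with 27077 reads and a fold of 4.22. This peak spanned chr15:71708001-71914000 and ran past the gene's end at 71798476, so part of it and of its reads lie outside the gene. Reads per kb over whole peaks were 47.9 in KO and 26.8 in sg-Ctrl, whose 3 peaks all lay inside the gene. These values therefore cover unlike stretches. Col19a1 and its neighbour Col9a1 shared 1 H3K27me3 peak in each list, and had 239.3 and 306.8 of 329.8 kb and 64.7 and 75.1 of 75.1 kb covered. Col16a1 had H3K4me3 alone, 790 reads over 4800 bp in sg-Ctrl and 204 reads over 1400 bp in KO, a ratio per kb of -0.52 (-0.75 to -0.30) and of total reads of -2.30. Col9a3 was touched by peaks at its edge, over 0.185 and 1.19 kb.

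Among the beaded filament and anchoring collagens, Col7a1, which forms the anchoring fibrils below epithelia, was the one gene with H3K4me3. Its peak kept its position at 2200 bp while its reads went from 1135 (1070 to 1203) to 640 (591.4 to 691.6), a ratio of -1.17 (-1.31 to -1.03), or -0.67 once the all-gene median is taken off. The type VI chains had H3K27me3. Col6a4, Col6a5 and Col6a6, side by side on chromosome 9, had 41.7, 41.0 and 36.0 kb covered in sg-Ctrl and 54.7, 55.6 and 91.1 kb in KO. Col6a2 and Col6a3 each had 1 short peak in sg-Ctrl, of 4000 and 3000 bp with 125 and 96 reads, and none in KO. Col28a1 was covered over its whole 194.8 kb in both lists, and Col26a1 over 5 and 9 of 141.3 kb.

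Of the transmembrane collagens and multiplexins, Col23a1 had the highest H3K4me3 ratio of the members, 0.51 (0.16 to 0.88), from 95 to 215 reads. Against the all-gene median it stood at 1.01, just past 2-fold. It also had H3K27me3 in its body, 20 and 51 of 294.0 kb, none of it at the start. Col18a1, the precursor of endostatin, held 971 and 570 reads with a ratio of -0.53 (-0.68 to -0.38). Col25a1 had 280.9 and 228.9 of 419.0 kb under H3K27me3, a loss of 52.0 kb and of 138 kb with folds of at least 2. Col13a1 had 1 peak of 3000 bp with 86 reads in sg-Ctrl alone, and Col17a1, of hemidesmosomes, had neither mark. Col4a3bp, the gene that is no collagen, had 7222 and 4654 reads and a ratio of 0.02 (-0.03 to 0.07) while its peak narrowed from 8400 to 4200 bp.

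Seen together, 5 of the 20 members with a peak in both lists had an H3K4me3 level per kb in KO at most 0.5 times that in sg-Ctrl: Sparc, Tnc, Col7a1, and Col4a5 with Col4a6. Of all 12197 genes, 9.66% did. No member was at least 2 times higher, against 0.525% of all genes. With libraries scaled by the reads in shared peaks in place of library size, the log2 ratios of all genes shift by 0.42, and 0 members were lower and 0 higher, where 153 and 211 of all genes were. Set against the all-gene median, 0 members were 2-fold lower and 1, Col23a1, was higher, against 0.926% and 2.20% of all genes. The median ratio of the 20 members was -0.53 (-0.9995 to -0.35 by the spread among genes), beside the median of -0.50 for all genes. With each of the 18 distinct peaks taken once it was -0.53 (-0.9995 to -0.32). The values just inside and outside the limit were -1.03 at Col4a5 and -0.9995 at Col8a1.

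The width of the peaks also differed. The peak was at most 0.5 times as wide in KO at 5 of 20 members (Col4a5, Col4a6, Col16a1, Spp1 and Col4a3bp, in 4 distinct peaks), against 1.07% of all genes. The members' median width was 4600 bp in sg-Ctrl and 2600 bp in KO, and that of all genes was 3600 and 4200 bp. Total scaled reads were at most 0.5 times those in sg-Ctrl at 8 of 20 members, against 7.63% of all genes. The 8 were the 5 that were lower per kb, with Col16a1, Col18a1 and Spp1. Among them Col4a5 and Col4a6 share 1 peak, so 1 measurement enters this count as 2 genes. Members' levels were low, with a median of 299.8 scaled reads per kb in sg-Ctrl where all genes had 542.8, and of the narrowed peaks those of Col4a5 with Col4a6 and of Spp1 had low folds over IgG, with lower folds at 9.66% and 2.25% of all genes in sg-Ctrl. How the level of a peak bears on its called width was not tested.

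**Figure D4:**
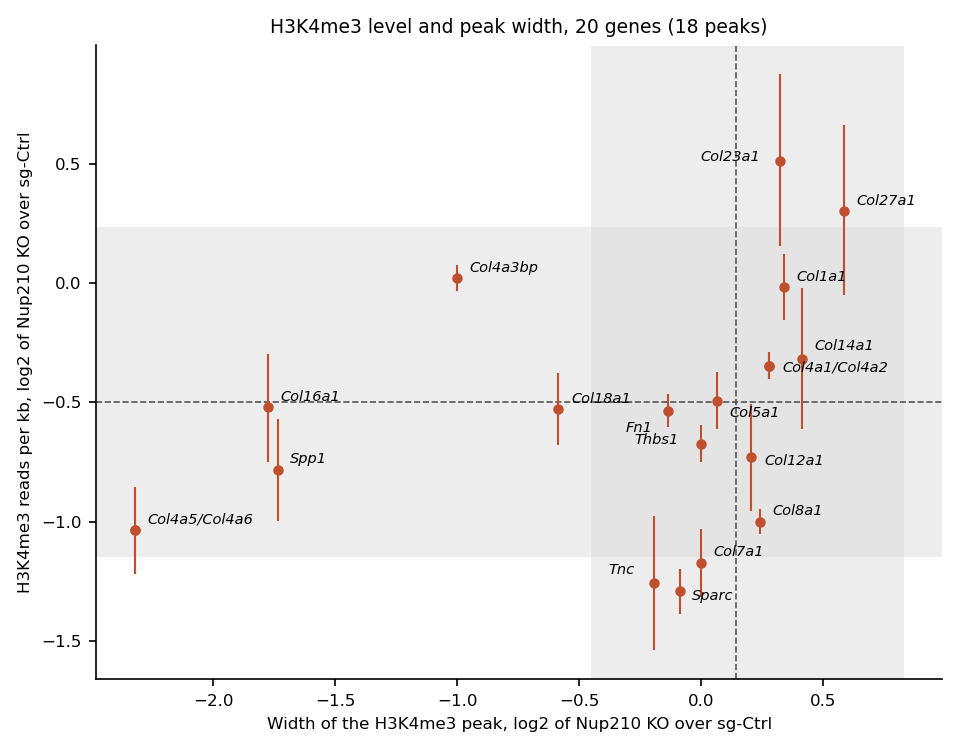
Log2 ratio (Nup210 KO over sg-Ctrl) of H3K4me3 reads per kb against that of the peak's width, for the 20 genes (18 peaks) with a peak in both lists, with 95% counting intervals. Dashed lines are the medians of all 12197 genes and grey bands hold their middle 90%. Sparc, Tnc and Col7a1 are low at nearly the same width, and Col4a5/Col4a6, Col16a1 and Spp1 lie far to the left.

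For H3K27me3, 22 members had peaks in both lists. Col5a3 and Postn had them in KO alone and Col13a1, Col6a2, Col6a3 and Thbs2 in sg-Ctrl alone, so 2 and 4 of 28, against 15.1% and 12.6% of all genes. The covered length was greater in KO at 19 of 22 members, against 38.2% of all genes. It was smaller at 2 members and at 929 of 4234 genes, and equal at the rest. The median share of the body covered in sg-Ctrl was 39.2% for these members and 72.4% for all such genes, which leaves those less room to gain. The length was at least 2 times greater at 9 of 22 members, against 11.3%. The 9 include Col9a3, covered over 0.185 and 1.19 kb, and Col11a1, with pooled folds over IgG of 0.734 and 0.904. They also include Col12a1, whose gain was 0.01 kb with folds of at least 2. Col1a2, Col22a1, Col23a1, Col6a6 and the neighbours Col4a5 and Col4a6 kept gains of 23 to 126.1 kb with that limit. The gains of Col1a2 and Col22a1 grew with it, to 32 and 109.5 kb, because it removed weak sg-Ctrl peaks (folds of 1.33 and 1.79). The covered length was at most 0.5 times as great at 0 of 22, against 6.94%. Gene length moved with these counts. The members with H3K27me3 had a median length of 135.6 kb where all such genes had 21.7 kb. Among genes of at least 100 kb, 15 of 18 members had a greater length in KO and 7 of 18 at least 2 times the length, against 59.7% and 18.9% of all genes of that size. Among shorter genes 4 of 4 members had a greater length, against 32.1%. Of all 3299 shorter genes 591 had a smaller length, and of the 935 longer ones 338 did, with the rest greater or equal. Over all 28 members the covered length was 1763 kb in sg-Ctrl and 2303 kb in KO, a ratio of 1.31, and 1.18 without Col4a5 and Col4a6. Over all genes it was 161.0 and 177.7 Mb, a ratio of 1.10.

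Inside the peaks, the median log2 ratio of H3K27me3 reads per kb was -0.17 (-0.30 to -0.06 by the spread among genes) for the members. It was -0.13 for all genes, with no gain per kb for either. The members' median was 0.51 when reads were summed over regions joined from overlapping peaks of both lists, which counts more reads where more length is listed. Of 84 KO peaks on the members 22 (26.2%) met no sg-Ctrl peak, beside 24.5% of KO peaks on all genes, and 5 of the 22 were below that 5th percentile, where 43.1% of such peaks on all genes were. In the other direction 8 of 82 sg-Ctrl peaks on the members (9.76%) met no KO peak, against 18.5% on all genes. The part of the depth of the KO library, 3.16 relative to sg-Ctrl, in these lengths was not tested.

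Listed H3K27me3 peaks covered the start of more members in KO, whose library was the deeper. A peak covered the start of 5 members in sg-Ctrl (Col3a1, Col5a2, Col6a4, Col14a1 and Col28a1) and of 13 in KO, of the 34 members in any gene-body list, against 27.5% and 30.8% of all genes there. The 8 added in KO were Postn, Col4a3, Col4a4, Col4a6, Col6a5, Col6a6, Col9a1 and Col19a1, against 8.58% of all genes with the start covered in KO alone. None had it in sg-Ctrl alone, against 5.25%. Of the 8, Postn and Col4a6 had H3K4me3 in sg-Ctrl. The starts of Col4a3 and Col4a4 were covered by 1 peak, so these are not 8 separate events. Some starts already lay close to sg-Ctrl peaks. Peaks ended at chr9:105960000 (Col6a5 start 105960643), chr1:24585000 (Col19a1 start 24587437) and chr1:82585000 (Col4a4 start 82586849). One began at chr1:82589001 (Col4a3 start 82586921). At Postn, Col4a6, Col6a6 and Col9a1, sg-Ctrl peaks on the gene lay further off or were absent. The part of library depth in these differences was not tested.

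**Figure D5:**
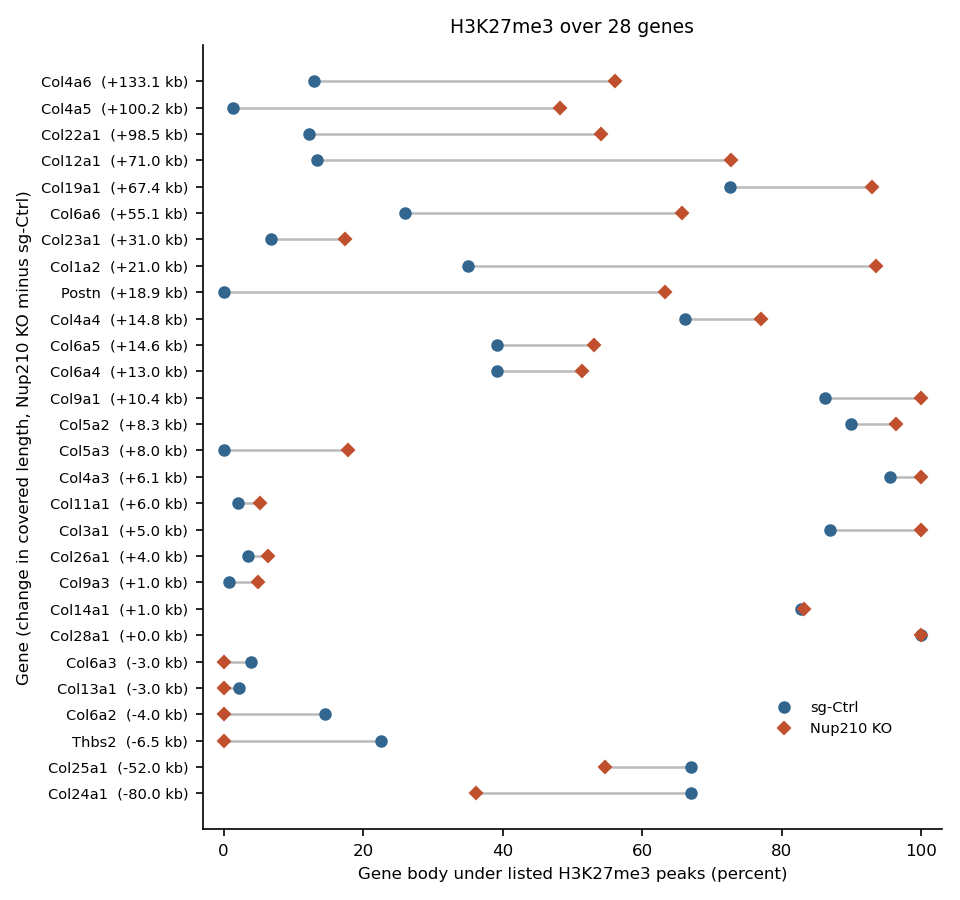
Percent of the gene body under listed H3K27me3 peaks in sg-Ctrl (blue) and Nup210 KO (orange) for the 28 genes with a peak in either list, ordered by the change in covered length in kb (in brackets). Most orange points lie to the right, with the widest gaps at Postn, Col12a1 and Col1a2 in percent and at Col4a6 in kb, and 6 genes lie the other way.

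NUP210 peaks lay on 21 of 45 members in sg-Ctrl, against 33.9% of all genes, and on 16 with an FDR of at most 0.05, against 27.1%. The members with NUP210 were long, at a median of 130.5 kb against 37.3 kb for all genes with such a peak. Their enrichment was slight, with a median pooled fold of 1.09, against 1.17. The highest folds were 2.19 at Col28a1 (113 reads), 2.03 at Col25a1 (244 reads), 1.89 at Col19a1 (176 reads) and 1.86 at Col11a1 (287 reads), and 2 members had a fold of at least 2. All 4 of these genes had H3K27me3. Of the 26 members with H3K27me3 in sg-Ctrl 15 had NUP210, against 46.6% of all genes with H3K27me3. Fn1 had 1 NUP210 peak at chr1:71626001-71636000 with 213 reads and a fold of 1.74 and no NPC peak. At Col4a5 and Col4a6 a NUP210 peak with 208 reads and a fold of 1.09 (FDR 0.136) lay over both starts, so it did not pass an FDR of 0.05, and the NPC peak there had a fold of 1.21 (FDR 0.00618). At Postn the NUP210 peak had a fold of 1.07 (FDR 0.0717).

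NPC peaks lay on 21 members, against 30.8% of all genes, and on 17 with an FDR of at most 0.05, against 20.1%. None of them reached a fold of 2, the highest being 1.70 at Col5a2 with 74 reads. Of the 21 members with NUP210 19 also had NPC, the exceptions being Fn1 and Col17a1, and Col6a4 and Col10a1 had NPC alone.

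Other genes of the pathway were counted in the same way, where 9.66% of all genes were 2-fold lower in KO. Of 25 collagen processing genes in the lists, such as the prolyl hydroxylases and lysyl oxidases, 20 had H3K4me3 in both lists, 1 (P4hb) was 2-fold lower in KO and 0 were higher, with a median ratio of -0.53. Of 18 matrix receptors 14 had it in both, and Itgb1 and Cd47 were lower, with a median of -0.50. The integrin subunit gene Itgb1 held 14561 and 10789 reads, a ratio of -1.35 (-1.39 to -1.32). Of 13 other matricellular genes 5 had it in both, and Cyr61 was lower at -1.41 (-1.50 to -1.32) with 3705 and 1533 reads. The length under H3K27me3 was 337.0 and 388.8 kb over the collagen processing genes, 156.2 and 87 kb over the matrix receptors, with Itga8 and Itga11 in sg-Ctrl alone and Itga9 in KO alone, and 537.6 and 510.4 kb over the other matricellular genes. Set against the all-gene median of H3K4me3, 0 genes of any of the 3 lists were 2-fold lower or higher.

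The promoters of 31 members could be taken at a start of the lists. By marks, their CG counts in 250 bases had a median of 12 in 11 members with H3K4me3 alone, 10 in 3 with both marks, 7 in 15 with H3K27me3 alone and 3.5 in 2 with neither. Over all genes the medians of these classes were 18, 14, 3 and 2. Members were taken only at starts in the lists, and all genes at whichever RefSeq start had most CG. The CG counts and TATAAA shares of members and of all genes thus rest on unlike choices of start. Single members ran from Col4a1 with 31 CG to Col3a1, Col9a1 and Col28a1 with 0. TATAAA was in the window of 3 of the 11 with H3K4me3 alone (Postn, Spp1 and Tnc), 0 of 3 with both marks, 3 of 15 with H3K27me3 alone and 2 of 2 with neither, where 5.21%, 5.27%, 18.8% and 27.7% of all genes of these classes had it.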

How the data were processed

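Peak lists of 6 ChIP-seq libraries were used, 1 per condition. Peaks had been called by the authors against IgG with SICER, in windows of 200 bp (H3K4me3) or 1000 bp. Each deposited entry holds the ChIP and IgG reads as raw counts, the p-value, the FDR and the deposited fold over IgG, a ratio scaled by library size in which a count of 0 IgG reads enters as 0.25. The submitters' processing notes name Bowtie2 among the tools and mm9, mm10 and NCBIM37 as builds. Among 5853 symbols that the NUP210 list shares with RefSeq, 85.9% had an end within 50 bp of GRCm38.p6, so mm10 positions were used. RNA-seq (4 samples) was not analysed here, and the 3 IgG samples entered as the IgG reads of each peak.

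Entries were collapsed to distinct peaks per gene symbol. The library ratio (ChIP over IgG) was recovered from counts and fold: 1.06 and 1.35 for H3K4me3 in sg-Ctrl and KO, 0.847 and 2.68 for H3K27me3, 1.01 for NUP210 and 0.606 for NPC. Reads were divided by it. Peaks held 26236314 and 24873356 H3K4me3 reads, 7719297 and 26811061 H3K27me3 reads, 7194586 NUP210 reads and 5866175 NPC reads, and total depth is otherwise unknown. Where a gene had several H3K4me3 peaks, that with most reads per kb stood for it, and a gene body is the union of its listed transcripts. Intervals are exact Poisson for counts, exact conditional binomial for ratios and order statistics for medians. The 2-fold calls were run on simulated counts with Poisson error alone, equal peak widths and changes set well beyond the limit. That run does not cover genes near the limit or differences between libraries or clones.

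Values are given in full for the 7 matricellular genes, members with H3K4me3 in 1 list, the 6 lowest and 4 highest ratios among members with 100 or more reads in a library, the 4 largest changes per direction in H3K27me3 length, the 4 highest NUP210 folds and neighbours that share a peak. The members and gene lists were chosen with earlier results of these data known. Promoters are from RefSeq (GRCm38.p6). Of the 45 genes 35 matched by symbol or synonym. Scripts ran under Python 3.11.15 with scipy 1.17.1, pandas 2.3.3, matplotlib 3.10.9 and numpy 2.4.6.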

Additional observations from a re-analysis of the deposited data

How the results depend on the processing

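With 1 library per condition the values carry no replicate error, and each alternative was computed without a test. No paired analysis was possible because the groups that share replicate numbers are the RNA-seq samples, which were not analysed here, and each ChIP-seq condition has 1 library. Of 55 alternatives to the main counts, medians and ratios, 42 stayed within 1.5 times the count or within an interval from the spread among members. Some of them could hardly move. No main H3K4me3 value changed with an FDR of at most 0.01 or a fold of at least 2. The ratio of covered H3K27me3 length, 1.31, was set against a wide spread, so 1.18 and 1.55 also counted as unchanged. The members 2-fold lower in H3K4me3 numbered 5, and 0 with scaling by shared peaks and relative to the median of all genes or of the gene's chromosome, and 8 by total reads of the peak. With the authors' fold over IgG they again numbered 5, but Col8a1 (-1.42) and Col18a1 (-1.11) stood in place of Col4a5 and Col4a6 (-0.55). Those 2-fold higher numbered 0, and 1 with the authors' fold over IgG and relative to the median of all genes or of the chromosome. The gene differed each time. It was Col16a1 (4.09) with the fold over IgG, Col23a1 (1.01) relative to all genes and Col27a1 (1.02) relative to the chromosome. Relative to its chromosome Col23a1 stood at 0.992. The value of Col16a1 rests on a KO peak with 0 IgG reads, and its ratio of total reads was -2.30. The median H3K4me3 ratio of -0.53 was -0.11 with scaling by shared peaks, -0.032 relative to all genes and -0.042 relative to the chromosome. Of 21 members with NUP210 and 21 with NPC, 2 and 0 had a peak of at least 2-fold over IgG. The median H3K27me3 ratio of reads per kb was -0.17, and 0.51 when reads were summed over regions joined from overlapping peaks of both lists, an alternative that by its construction counts more reads where more length is listed. The changes in H3K27me3 length of Col3a1 and Col5a2 turned to -16.5 and -45 kb when peaks with folds under 2 were left out. The comparisons relative to a median, the joined regions, the members without Col4a5 and Col4a6 and the limit of 100 kb were chosen after the data were seen.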
